A study of Mus musculus with 6 samples.

Results

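The genes described here are the 10 mouse genes for lysyl oxidases, lysyl hydroxylases and prolyl 4-hydroxylase alpha subunits that were listed by symbol, out of 55401 genes counted in each library. They comprise Lox, Loxl1, Loxl2, Loxl3, Loxl4, Plod1, Plod2, P4ha1, P4ha2 and P4ha3. All 10 symbols matched an Ensembl identifier in the count files and all 10 passed the filter on low counts, which kept 18539 genes. The cells were NIH3T3, an immortalized line of mouse fibroblasts, seeded for 16 h and then kept for 48 h in DMSO vehicle or in 10 μM aurintricarboxylic acid (ATA), a small molecule that the study describes as a disruptor of TAZ-TEAD binding. The groups were 2 libraries of cells with an empty vector in DMSO (EV), 1 library of cells with the TAZ-CAMTA1 fusion in DMSO (TC) and 3 libraries of cells with the fusion in ATA (TC + ATA). The promoter that drives the fusion, and whether the cells are a pool or a single clone, are not given in the sources used here, nor is it stated that libraries of a group came from separate cultures, so the tests measure the spread between these libraries. None of the 6 libraries came from empty vector cells in ATA, so an effect of ATA without the fusion cannot be read from them.

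Collagen chains are modified in the endoplasmic reticulum before they are secreted. Prolyl 4-hydroxylases, which pair an alpha subunit with protein disulfide isomerase (P4hb), hydroxylate prolines and thereby stabilize the collagen helix, whereas lysyl hydroxylases (the Plod genes) hydroxylate lysines that later carry sugars and crosslinks. Both kinds of enzyme depend on oxygen, iron and ascorbate. Outside the cell, lysyl oxidases, which are copper enzymes, convert lysines of collagen and elastin into aldehydes that form the covalent crosslinks of the mature fiber, and fibroblasts are a main source of these proteins.

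Library totals ran from 58471484 to 74413193 counts, and the number of libraries rather than counting error limited the precision for all members but Loxl2. No pair of libraries agreed within sampling noise (chi-square per degree of freedom at least 4.85), and the pair of EV libraries stood further apart (46.2) than pairs of TC + ATA libraries (up to 5.41). The TC library lay at 17.4 to 18.9 from the TC + ATA libraries, also less than the distance between the EV libraries. Over all genes, the EV libraries lay at 163 to 196 from the libraries with the fusion. All 10 fibroblast markers exceeded 1 CPM (the counts-per-million scale, after TMM scaling of the library totals) in every library. Epithelial and endothelial markers summed to at most 1.28 and 3.62 CPM. Reads of Wwtr1, the mouse gene for TAZ, lay at 110 and 104 CPM in EV, 139 CPM in TC and 129 to 131 CPM in TC + ATA. Wwtr1 was called higher in TC against EV (log2 fold change 0.37). The call was lost when TC + ATA was left out of the fit or when replicate number was added to it. Camta1, the other gene of the fusion, had 18.9 and 15.4 CPM in EV and 19.2 CPM in TC and was not called (log2 fold change 0.16, edgeR adjusted p = 0.411). The counts do not separate an introduced gene from the endogenous one, so this checks the label of the fusion in part only. In bulk RNA, fewer cells of a type and less RNA per cell cannot be told apart.

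In TC against EV, 7 of the 10 members rose and 2 fell, by edgeR's quasi-likelihood test over all 6 libraries with 0.05 as the limit on the adjusted p. Of the 18539 genes, 14.8% passed in the upward direction and 13.2% in the downward direction. The members that rose were Loxl2, Loxl3, Loxl4, Plod1, Plod2, P4ha1 and P4ha3. Lox and Loxl1, the most abundant members in EV, fell. P4ha2 was not called. The median log2 fold change of the members was 0.69, against −0.03 over all genes tested. A further limit of 2 on the absolute log2 fold change, of the size the study used, was passed by 3.64% of all genes tested and by none of the 10 members in edgeR. Loxl4 lay at this limit. Its log2 fold change was 1.9996 in edgeR and passed the limit under 4 of 12 alternatives, namely with DESeq2 (2.01), when TC + ATA was left out of the fit (2.0012), with a filter of 5 CPM (2.02) and without the second EV library (2.08).

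**Figure D1:**
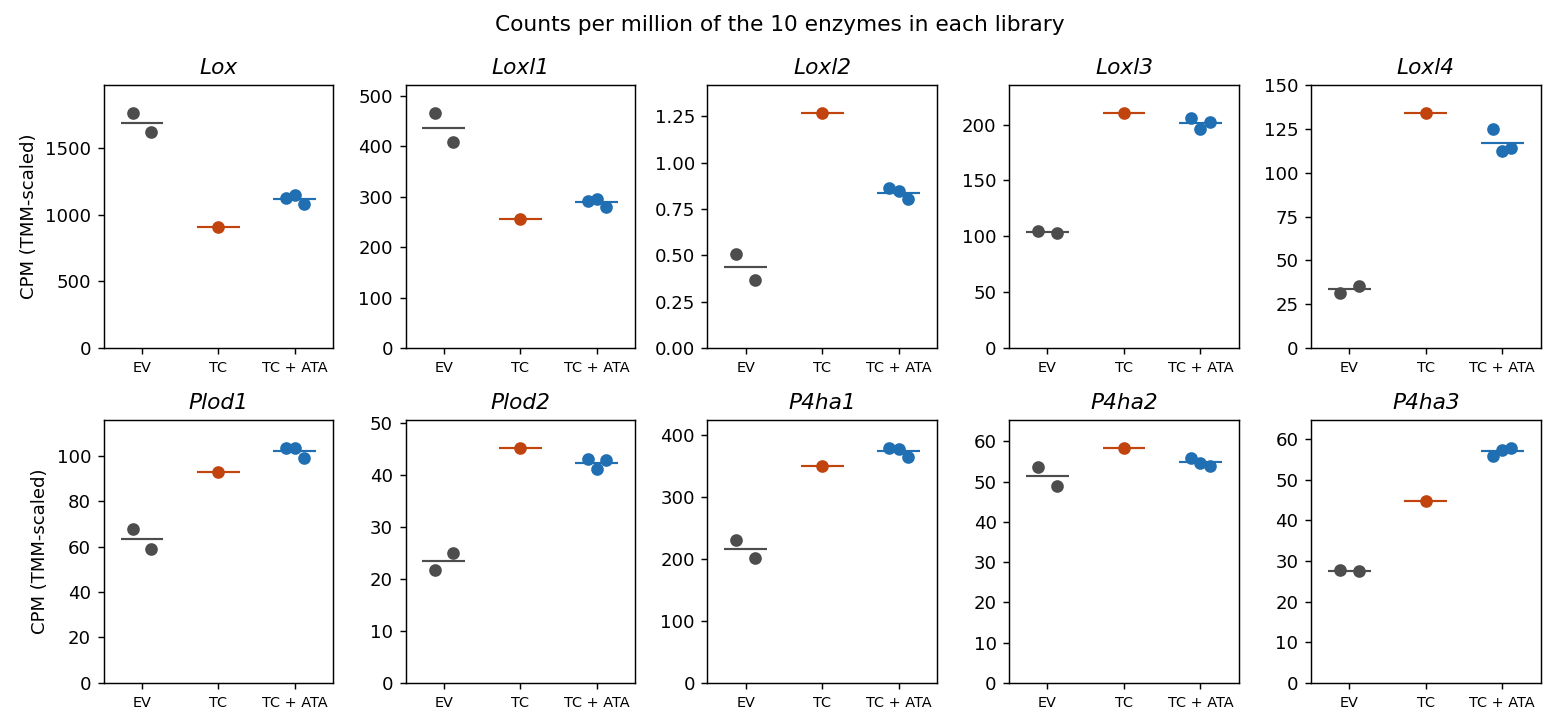
CPM after TMM scaling (y axis, linear from 0, with its own scale for each gene) of the 10 enzymes in the 2 EV, 1 TC and 3 TC + ATA libraries (x axis). Points are libraries and horizontal lines are group means. Every library with the fusion lies below both EV libraries for Lox and Loxl1 and above them for the other genes, P4ha2 by the least. The share of all genes that separate in this way is not given here.

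Lox encodes lysyl oxidase itself, the founding member of its family. It lies on chromosome 18 from 52516067 to 52529867 (GRCm38, minus strand). Its level was 1761 and 1617 CPM in EV, 905 CPM in TC and 1122, 1146 and 1083 CPM in TC + ATA. The level in TC was the lowest. Lox thus had a mean of 1689 ± 102 CPM (SD, n = 2) in EV, 1.87-fold that in TC, with a log2 fold change of −0.90 (standard error, SE, of 0.10, edgeR adjusted p = 0.000249).

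Loxl1, a paralog known for its part in elastic fiber maintenance, fell beside it. Loxl1 (chromosome 9, 58287738 to 58313186) had 466 and 408 CPM in EV, 257 CPM in TC and 292, 296 and 280 CPM in TC + ATA. The order of the groups was that of Lox. The log2 fold change in TC against EV was −0.77 (SE 0.10, edgeR adjusted p = 0.000657).

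Loxl3 and Loxl4 encode lysyl oxidases that carry scavenger receptor domains before the catalytic domain, and both rose. Loxl3 (chromosome 6, 83034173 to 83052562) went from 105 and 103 CPM in EV to 210 CPM in TC, with 206, 196 and 202 CPM in TC + ATA. All libraries with the fusion were close to a common level, far above both EV libraries. The log2 fold change was 1.02 (SE 0.08, edgeR adjusted p = 1.83e-05). Exons of Htra2 on the opposite strand overlap 535 of its 4603 exonic bases, and the use of strand in counting is not given in the sources used here.

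Loxl4 had the largest change of the members. Loxl4 (chromosome 19, 42593982 to 42612813) stood at 31.7 and 35.4 CPM in EV, 134 CPM in TC and 125, 113 and 114 CPM in TC + ATA. The mean in EV was 33.5 ± 2.63 CPM (SD, n = 2), and the distance from it to TC was many times the gap between the EV libraries. Its log2 fold change of 2.00 had a SE of 0.10 (edgeR adjusted p = 1.62e-06).

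Loxl2, the remaining family member, was barely detected. Loxl2 (chromosome 14, 69609068 to 69695834) had 38 and 28 counts in EV, 88 counts in TC and 49, 60 and 56 counts in TC + ATA. Its log2 fold change of 1.53 in TC against EV had a wide 95% interval, from 0.67 to 2.40 (edgeR adjusted p = 0.0161). The call was lost with the replicate block (edgeR adjusted p = 0.108). An antisense gene overlaps 301 of its 5405 exonic bases.

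Per kilobase of annotated exon, the family as a whole was lower with the fusion. The length used is that of all annotated exons of a gene and not of the transcript expressed. Sums, shares and ratios between genes are therefore approximate. The 5 lysyl oxidase genes summed to 540 and 493 RPKM (CPM per kilobase of exon) in EV, 345 RPKM in TC and 398, 399 and 383 RPKM in TC + ATA. Lox and Loxl1 made up most of this sum in every library. The share of Lox was 68.4% ± 0.308 (SD, n = 2) in EV, 54.9% in TC and 59.4% ± 0.568 (SD, n = 3) in TC + ATA. Loxl3 and Loxl4 took larger shares in turn. The share of Loxl3 was 4.37% ± 0.220 in EV, 13.2% in TC and 11.1% ± 0.423 in TC + ATA. For Loxl4 the shares were 1.55% ± 0.222, 9.22% and 7.08% ± 0.389, the errors again being SDs over 2 and 3 libraries. These shares are ratios within a library, so the scaling between libraries does not enter them.

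**Figure D2:**
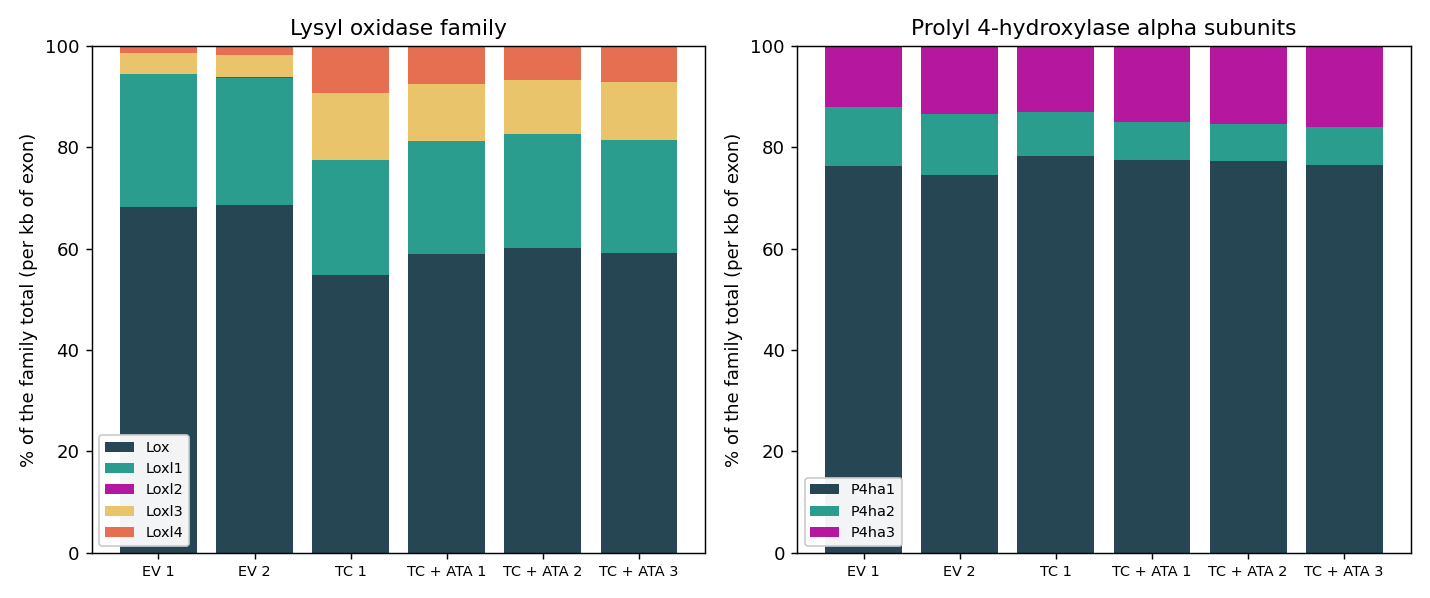
Share of each gene in the summed level of its family, per kilobase of exon (y axis, percent), in each of the 6 libraries (x axis). On the left, the lysyl oxidase family, in which Loxl2 is too low to be seen and Lox goes from 68.2% and 68.7% in EV to 54.9% in TC; on the right, the prolyl 4-hydroxylase alpha subunits, in which P4ha1 holds between 74.6% and 78.3%.

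The ratio of Lox to Loxl4 in RPKM was 49.1 and 40.3 in EV, 5.95 in TC and between 7.90 and 8.98 in TC + ATA. Relative to Col1a1, which encodes a chain of type I collagen, its main substrate, Lox stood at 0.747 and 0.795 in EV, 0.285 in TC and between 0.369 and 0.387 in TC + ATA. For both ratios the EV libraries lay above all libraries with the fusion, and TC lay below TC + ATA. Both set a gene that fell over one that rose, so their distance from EV restates those changes.

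**Figure D3:**
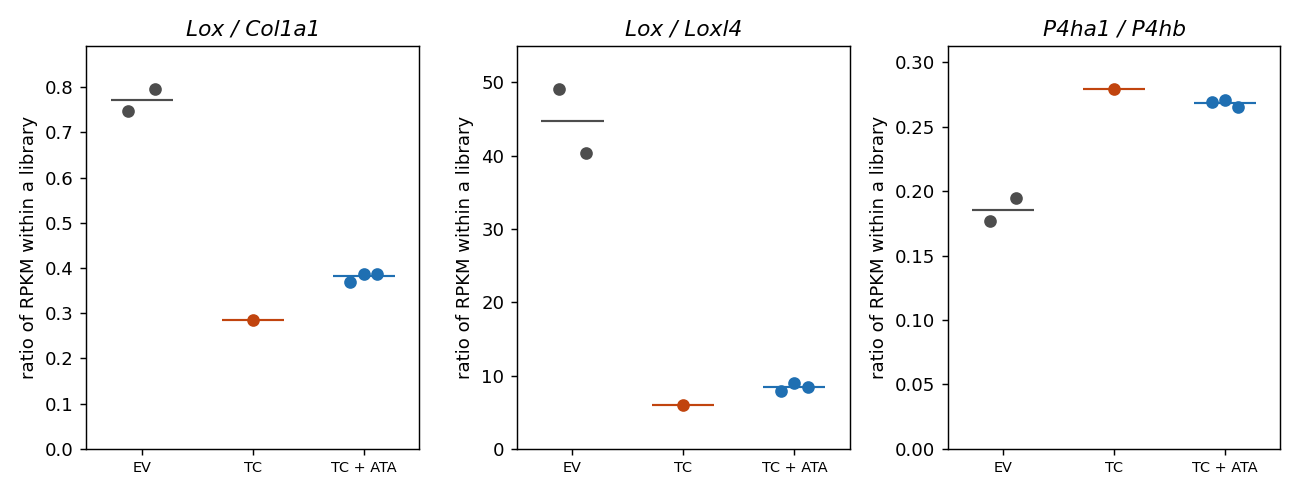
Ratios of RPKM within a library (y axis, linear from 0) for Lox to Col1a1, Lox to Loxl4 and P4ha1 to P4hb in the EV, TC and TC + ATA libraries (x axis). Points are libraries and lines are group means; both Lox ratios are lower, and the P4ha1 ratio higher, in every library with the fusion.

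Plod1 and Plod2 encode lysyl hydroxylases. The product of Plod1 acts on the helical part of collagen, and that of Plod2 is known for hydroxylating the telopeptides, which sets the kind of crosslink that forms. Plod1 (chromosome 4, 147909753 to 147936767) had 67.7 and 59.1 CPM in EV, 92.8 CPM in TC and 103, 103 and 98.8 CPM in TC + ATA. Its log2 fold change in TC against EV was 0.55 (SE 0.09, edgeR adjusted p = 0.00249). Plod2 (chromosome 9, 92542223 to 92608428) changed more, from 21.7 and 24.9 CPM in EV to 45.2 CPM in TC, with 43.0, 41.1 and 42.8 CPM in TC + ATA. This amounted to 1.94-fold, a log2 fold change of 0.95 (SE 0.10, edgeR adjusted p = 0.000128). For both genes every library with the fusion exceeded both EV libraries, but the share of all genes that separate in this way is not given here. Per length, Plod1 remained above Plod2, with a ratio of 2.48 and 1.89 in EV, 1.64 in TC and 1.84 to 2.01 in TC + ATA, so that EV and TC + ATA overlapped in this ratio. Plod3, another lysyl hydroxylase, is no member and is counted among the partners below. It stood above Plod1 and Plod2 per length, with a mean of 43.1 RPKM in EV and 53.8 RPKM in TC. Plod3 was called higher in TC against EV with a smaller log2 fold change, 0.32. A gene annotated on the opposite strand overlaps 346 of the 5392 exonic bases of Plod2.

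The prolyl 4-hydroxylase alpha subunits carry the catalytic site of the enzyme, and P4ha1 is the main form in most tissues. P4ha1 (chromosome 10, 59323296 to 59373304) had 231 and 201 CPM in EV, 350 CPM in TC and 379, 377 and 365 CPM in TC + ATA. Its log2 fold change in TC against EV was 0.69 (SE 0.10, edgeR adjusted p = 0.000809). P4ha3 (chromosome 7, 100285520 to 100319699) had the same log2 fold change of 0.69 at a lower level, with 27.7 and 27.5 CPM in EV, 44.6 CPM in TC and 55.9, 57.2 and 57.8 CPM in TC + ATA (SE 0.08, edgeR adjusted p = 0.000218). It was the member with the highest levels in TC + ATA relative to TC.

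P4ha2, whose product prefers other proline-rich sites than that of P4ha1, stood apart. P4ha2 (chromosome 11, 54100095 to 54131665) had 53.7 and 48.9 CPM in EV, 58.4 CPM in TC and 55.9, 54.7 and 53.9 CPM in TC + ATA. All 4 libraries with the fusion lay above both EV libraries, by as little as the step from 53.7 to 53.9 CPM. The log2 fold change in TC against EV was 0.19, with a 95% interval from −0.01 to 0.38 (edgeR adjusted p = 0.151). It was called when the first EV library was left out (0.24, edgeR adjusted p = 0.00856). The summed level of the alpha subunits was 73.6 and 65.5 RPKM in EV, 109 RPKM in TC and 116 to 119 RPKM in TC + ATA, and the share of P4ha2 in it was 11.8% ± 0.190 (SD, n = 2) in EV, 8.62% in TC and 7.47% ± 0.0743 (SD, n = 3) in TC + ATA.

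P4hb, the shared partner of these subunits, was not called in TC against EV (log2 fold change 0.10, SE 0.13, edgeR adjusted p = 0.643). Its levels of 909 and 718 CPM in EV enclosed the 871 CPM of TC, and its log2 fold change rested on the EV libraries. It was 0.27 and called without the first of them (edgeR adjusted p = 0.000113), −0.06 without the second, and −0.0048 with scaling by library size. Per length, P4ha1 was at 0.177 and 0.195 of P4hb in EV, 0.279 in TC and 0.265 to 0.271 in TC + ATA, without overlap between EV and the libraries with the fusion. P4hb was chosen after its values were seen.

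The order of the members by level per length, which depends on the annotated exon lengths, changed between the groups. In EV it began with Lox (353 ± 21.4 RPKM, SD, n = 2), Loxl1 (133 ± 12.5) and P4ha1 (52.5 ± 5.15), followed by Loxl3 (22.5 ± 0.331). Plod1, P4ha3, P4ha2 and Loxl4 came next, between 7.96 and 9.37 RPKM, with small gaps between neighbours. The EV libraries of Plod1 (8.73 and 10.0 RPKM) enclosed those of P4ha3 (8.78 and 8.82 RPKM), and those of P4ha2 (7.84 and 8.61 RPKM) and Loxl4 (7.51 and 8.40 RPKM) overlapped. P4ha3 lay above P4ha2 in both libraries, and Plod1 above Loxl4. Plod2 (4.33 ± 0.419) and Loxl2 (0.0810 ± 0.0184) were the lowest. In TC, P4ha1 (85.0 RPKM) exceeded Loxl1 (78.0 RPKM) and Loxl4 (31.8 RPKM) stood directly after Loxl3 (45.7 RPKM). In TC + ATA, P4ha1 (88.6 to 92.1 RPKM) and Loxl1 (84.8 to 89.9 RPKM) overlapped in range, with P4ha1 the higher in each library, as in TC.

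**Figure D4:**
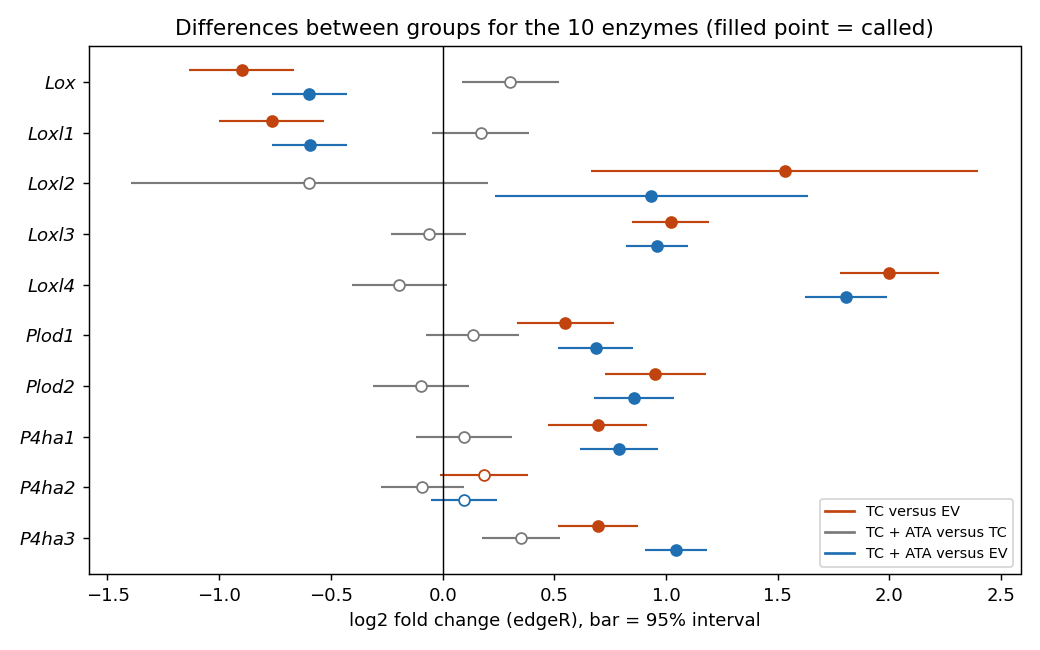
Log2 fold change from edgeR (x axis) of each enzyme (y axis) for TC versus EV, TC + ATA versus TC and TC + ATA versus EV, with 95% intervals as bars and filled points where the adjusted p-value is at most 0.05. Loxl4 is farthest to the right against EV, Lox and Loxl1 are to the left, and all points for TC + ATA versus TC are open.

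None of the 10 members was called in either direction between TC + ATA and TC by edgeR, where 0.426% of the 18539 genes passed upward and 0.156% downward. At an unadjusted p under 0.05, 2 of the 10 members (Lox and P4ha3) passed, as did 1781 of all 18539 genes. DESeq2 called these 2 members higher. P4ha3 had a log2 fold change of 0.35 with a 95% interval from 0.18 to 0.53 (edgeR adjusted p = 0.109). For Lox it was 0.30 with an interval from 0.09 to 0.52 (edgeR adjusted p = 0.311). Each TC + ATA library exceeded the TC library in both genes. For Lox these libraries lay between TC and EV, whereas for P4ha3 they lay beyond TC on the side away from EV.

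The other members had intervals that reached both sides of 0. Loxl4 had a log2 fold change of −0.19 (interval −0.40 to 0.02) and Loxl1 one of 0.17 (interval −0.05 to 0.39). Those of Loxl3, Plod1, Plod2, P4ha1 and P4ha2 were between −0.10 and 0.13, and that of Loxl2 was −0.60 (interval −1.40 to 0.20). The calls changed with the EV libraries in the fit. Without 1 or both of them, far more of all genes tested were called too, so the added calls are not particular to the members. When both were dropped from the fit, and likewise when either was, edgeR called Lox, Loxl1 and P4ha3 higher (edgeR adjusted p from 0.000355 to 0.0216). With 1 TC library, the difference has no replicate check on the TC side.

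TC + ATA and EV, which both have replicates, differ in the fusion and in the compound at once, and these cannot be told apart in this comparison. It shares its libraries with both others. Here 7 members were called higher and 2 lower, against 18.0% and 18.6% of all genes tested. Loxl4 had the largest log2 fold change (1.81, SE 0.08, edgeR adjusted p = 5.23e-07). P4ha3 at 1.05 was second among the members (SE 0.06, edgeR adjusted p = 2.59e-06). The values of Loxl3, Plod2, P4ha1 and Plod1 were 0.96, 0.86, 0.79 and 0.68, and those of Lox and Loxl1 were both −0.60. P4ha2 had 0.10 with an interval from −0.05 to 0.24 (edgeR adjusted p = 0.292), and it was called without the first EV library (0.15, edgeR adjusted p = 0.0315). The call of Loxl2 (0.93, edgeR adjusted p = 0.0421) was lost without the second EV library or any 1 of the TC + ATA libraries (edgeR adjusted p from 0.0839 to 0.144), without the filter on low counts (0.0514) and with the replicate block (0.137).

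The promoters of the members that rose are shown because the fusion is thought to act through TEAD factors at DNA. RefSeq promoter windows were found for 5 of the 10 members, Loxl4, P4ha1, P4ha2, P4ha3 and Plod1. The window of P4ha2, which was not called, lies inside the annotated gene and is not shown. The stretch before the RefSeq start is given for the other 4, which rose in TC, 5′ to 3′ on the strand of the gene (GRCm38.p6), without bases inside the annotated gene. Capitals mark the core of the hypoxia response element (ACGTG or GCGTG) on either strand, in which a match on the other strand reads CACGT or CACGC. The windows are chr19:42612814-42613056 (minus strand) for Loxl4, chr10:59323046-59323295 (plus strand) for P4ha1, chr7:100285270-100285519 (plus strand) for P4ha3 and chr4:147936777-147937026 (minus strand) for Plod1.
Loxl4: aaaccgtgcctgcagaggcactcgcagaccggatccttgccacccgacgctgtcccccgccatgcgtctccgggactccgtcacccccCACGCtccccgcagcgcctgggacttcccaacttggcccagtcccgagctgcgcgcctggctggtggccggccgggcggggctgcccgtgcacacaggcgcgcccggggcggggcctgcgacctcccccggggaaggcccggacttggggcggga
P4ha1: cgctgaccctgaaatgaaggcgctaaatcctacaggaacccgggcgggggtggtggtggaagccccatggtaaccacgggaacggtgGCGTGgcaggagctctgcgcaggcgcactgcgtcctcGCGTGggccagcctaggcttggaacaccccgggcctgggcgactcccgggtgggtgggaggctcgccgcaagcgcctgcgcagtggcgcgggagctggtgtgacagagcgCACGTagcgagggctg
P4ha3: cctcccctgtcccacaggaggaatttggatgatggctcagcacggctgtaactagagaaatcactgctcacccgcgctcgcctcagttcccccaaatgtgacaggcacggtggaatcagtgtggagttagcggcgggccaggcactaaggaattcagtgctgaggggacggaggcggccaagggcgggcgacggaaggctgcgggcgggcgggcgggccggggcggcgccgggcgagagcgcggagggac
Plod1: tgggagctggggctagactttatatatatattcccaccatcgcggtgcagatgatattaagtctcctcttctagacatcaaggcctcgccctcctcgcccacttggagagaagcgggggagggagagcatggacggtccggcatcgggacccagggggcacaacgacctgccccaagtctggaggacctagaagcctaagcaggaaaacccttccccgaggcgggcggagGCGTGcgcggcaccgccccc

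The TEAD core GGAATG was found on neither strand in the 250 bases before the start of any of the 5 members, whereas 12.6% of all 32851 promoter windows of that length hold it. ACGTG was found in P4ha1 and P4ha2 (16.6% of all windows) and GCGTG in Plod1, P4ha1, P4ha2 and Loxl4 (28.2% of all windows). The window of P4ha2, inside the gene, held 3 such matches, as did that of P4ha1, and no matches overlapped each other. A match is a description of these letters and not a binding site, and distal elements lie outside these windows.

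The genes that work with these enzymes moved in both directions in TC against EV. Of 26 partners of collagen modification and procollagen processing (Plod3, chaperones, prolyl 3-hydroxylases, glycosyltransferases and propeptide proteases among them), 24 were tested. Of these, 7 rose and 4 fell, against 14.8% and 13.2% of all genes tested, with a median log2 fold change of 0.08. The largest changes were those of Adamts2, which removes the amino-terminal propeptide of procollagen (−1.38, SE 0.09), and Fkbp7, a prolyl isomerase of the endoplasmic reticulum (−1.19, SE 0.12). Pcolce, an enhancer of carboxy-terminal propeptide removal, rose by 1.16 (SE 0.12), and the prolyl 3-hydroxylase family gene P3h3 had −0.97 (SE 0.10). The adjusted p-values from edgeR for these were 1.05e-05, 0.000104, 0.00014 and 0.000162. Bmp1, the protease that cleaves the carboxy-terminal propeptide and activates pro-lysyl oxidase, was chosen after its values were seen. It had 112 and 146 CPM in EV, 236 CPM in TC and 212 to 241 CPM in TC + ATA (log2 fold change in TC against EV 0.87, edgeR adjusted p = 0.00182), the opposite direction to Lox. None of the 24 was called between TC + ATA and TC, although 2 were called higher with DESeq2 or without the filter on low counts and 6 or 7 when 1 or no EV library entered the fit, in which case 1 was also called lower.

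**Figure D5:**
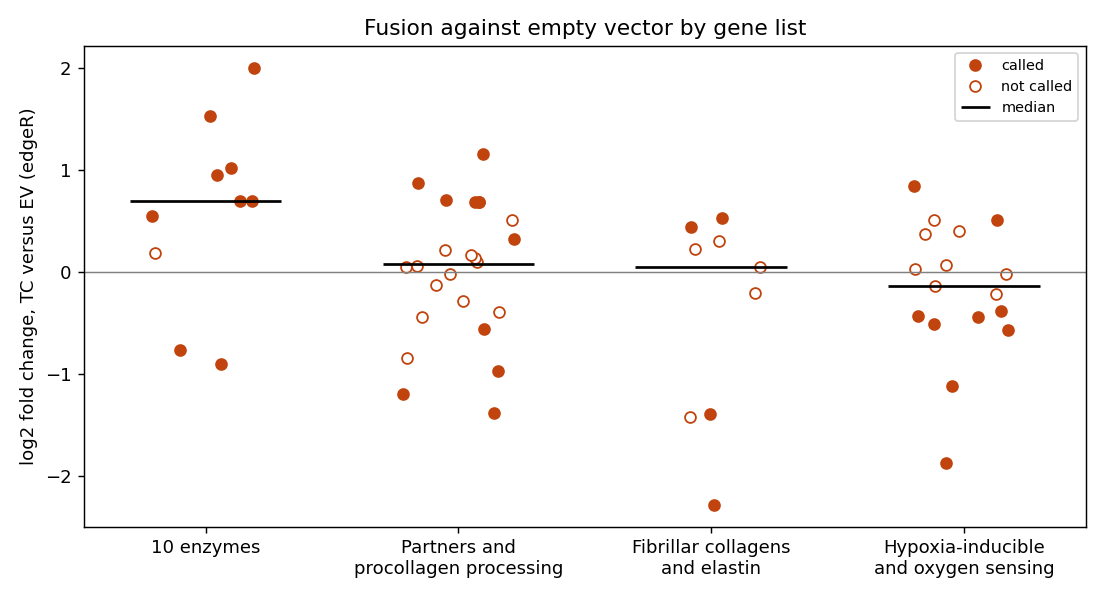
Log2 fold change from edgeR in TC versus EV (y axis) for the 10 enzymes, the 24 tested partners, the 9 tested fibrillar collagen and elastin genes and the 17 tested hypoxia and oxygen-sensing genes (x axis). Points are genes, filled where called, and bars are medians, which are 0.69, 0.08, 0.05 and −0.14.

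Of 10 genes for fibrillar collagen chains and elastin, the substrates of these enzymes, 9 were tested. Of these, 2 rose and 2 fell in TC against EV, where 14.8% and 13.2% of all genes tested did. The number called higher was 4 with DESeq2 and without either EV library, and 0 with only the EV and TC libraries in the fit or with the replicate block, and the number called lower was 4 without the first EV library. Col1a1 rose from 3240 and 2791 CPM in EV to 4356 CPM in TC (log2 fold change 0.53, edgeR adjusted p = 0.0103) and Col5a1, a chain of type V collagen, rose by 0.45 (edgeR adjusted p = 0.0042). Col11a1 and Col5a3, at much lower levels, fell by 2.28 and 1.39 on the log2 scale (edgeR adjusted p = 5.82e-05 and 0.00315). The calls of Col1a1 and Col5a1 were lost when TC + ATA was left out of the fit (edgeR adjusted p = 0.329 and 0.147) and with the replicate block (edgeR adjusted p = 0.146 and 0.0724). That of Col1a1 was also lost without the second TC + ATA library (edgeR adjusted p = 0.0505). None of the 9 was called between TC + ATA and TC, although 1 or 2 were called higher when 1 or no EV library entered the fit.

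Several of the enzymes, P4ha1, P4ha2, Plod2 and Lox among them, are known to be induced under low oxygen through hypoxia-inducible factors. Of 18 genes of that response and of oxygen sensing, 17 were tested. In TC against EV 2 rose and 7 fell, against 14.8% and 13.2% of all genes tested, with a median log2 fold change of −0.14. Adm, which encodes the vasodilator peptide adrenomedullin, fell from 26.3 and 26.8 CPM in EV to 7.26 CPM in TC, with 15.6, 15.6 and 14.3 CPM in TC + ATA. Adm was the one gene of this list called between TC + ATA and TC (log2 fold change 1.06, SE 0.11, edgeR adjusted p = 0.00547), a call lost without the third TC + ATA library (edgeR adjusted p = 0.0573). When 1 or no EV library entered the fit, 2 genes of the list were called higher, and without the first EV library Egln1 was called lower (−0.16, edgeR adjusted p = 0.0395). Egln1, an oxygen-sensing prolyl hydroxylase that acts on hypoxia-inducible factors, rose by 0.85 in TC against EV (edgeR adjusted p = 0.000123). The other gene that rose was Ndrg1 (0.51, edgeR adjusted p = 0.00369), named after its values were seen. Pdk1, a kinase that restrains pyruvate entry into mitochondria, had −0.57 (edgeR adjusted p = 0.00442). Ankrd37 had −1.11 (edgeR adjusted p = 0.0456), a call lost under 8 of 11 alternatives (adjusted p from 0.051 with DESeq2 to 0.188 with the replicate block in edgeR), among them those without the second EV library or any 1 TC + ATA library. The number of genes called lower was 3 with only the EV and TC libraries in the fit and 2 with the replicate block. Of the members named as inducible by low oxygen, P4ha1 and Plod2 rose, Lox fell and P4ha2 was not called.

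Among 10414 other genes with a mean of at least 5 CPM, the pattern of Loxl4 over the 6 libraries was most like those of Itga6, Fstl3 and Pld2. The root mean square difference of centered log2 CPM from Loxl4 was 0.063, 0.0656 and 0.0736 for these genes. Itga6, which encodes an integrin chain that binds laminin, had 78.0 and 84.4 CPM in EV, 326 CPM in TC and 264 to 281 CPM in TC + ATA. The pattern of Lox was most like those of Lysmd2, Pdp1 and Efna4, with differences of 0.0369, 0.0446 and 0.0448. Likeness over 6 libraries in 3 groups is a description.

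Among markers of other cell types, Acta2, a gene of smooth muscle and of contractile fibroblasts, rose in TC against EV (log2 fold change 0.62, edgeR adjusted p = 0.0127) and in TC + ATA against TC (0.97, edgeR adjusted p = 0.0303). It had 460 and 345 CPM in EV, 620 CPM in TC and 1181 to 1242 CPM in TC + ATA. The first call was lost with the replicate block (edgeR adjusted p = 0.0794) and the second without any 1 TC + ATA library or with the block (edgeR adjusted p from 0.0719 to 0.178). Of the other 4 smooth muscle markers, none of which was called in either comparison, Des had 26.2 to 42.4 CPM over all libraries, and Myh11, Cnn1 and Tagln had at most 1.15 CPM. The 5 leukocyte markers summed to 6.23 and 6.62 CPM in EV, 10.5 CPM in TC and 11.6 to 16.8 CPM in TC + ATA. The higher sum in TC came from Lyz2, a lysozyme gene, which rose from 0.495 and 0.249 CPM in EV to 5.66 CPM in TC (log2 fold change 3.92, edgeR adjusted p = 1.09e-05). Ptprc and Cd68 were not called (−0.44 and −0.22), Ptprc ranged from 0.281 to 5.33 CPM within TC + ATA, and Adgre1 and Itgam were at or near 0 throughout. Of the 5 endothelial markers, Cdh5 was called higher in TC against EV (log2 fold change 1.55) and 4 were not called. Cdh5 was low, with 0.655 and 0.315 CPM in EV and 1.43 CPM in TC. In TC + ATA against EV only Kdr was called among them (1.13, edgeR adjusted p = 0.0349), also at a low level. The 10 fibroblast markers moved both ways in TC against EV. Col1a1 and Vim rose. Dcn, Thy1 and Fn1 fell by 2.07, 1.47 and 0.83 on the log2 scale, and Pdgfra fell from 404 and 422 CPM in EV to 180.1 CPM in TC, in the same direction as Lox and Loxl1. The calls of Vim and Fn1 were lost when TC + ATA was left out of the fit (edgeR adjusted p = 0.224 and 0.0768), and that of Vim with the replicate block (edgeR adjusted p = 0.0915). The part of these markers in the levels of the enzymes was not tested.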

How the data were processed

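The authors prepared poly(A)-selected RNA libraries with the NEBNext Ultra II kit, sequenced them in paired-end mode, aligned the reads to mm10 (GRCm38.p6) with HISAT2 2.2.1 (version per the submitters' processing notes) and used featureCounts for counting. What they deposited is 1 table of raw, whole-number counts for each library, with no normalization. Strand use, the annotation release and the handling of reads with several matches are not given in the sources used here.

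From these counts, all 6 libraries were fitted together in R 4.3.3 with edgeR 4.0.16 (TMM, filterByExpr, glmQLFit, glmQLFTest, 3 residual degrees of freedom) across all 18539 genes, with Benjamini-Hochberg adjustment over all of them and a limit of 0.05. CPM are counts-per-million values relative to the TMM-scaled library total, and RPKM divide CPM by the summed exon length in GENCODE M21, to which 55141 of 55401 identifiers matched. The SEs were derived from the log2 fold change and the F statistic of each edgeR test. The 95% intervals were built from these SEs with a t quantile, so both are approximate. Shares and ratios were computed within a library. Groups came from the sample labels.

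The members and lists were chosen with earlier results of these data known. Named were all members, of each list the genes called between TC + ATA and TC and the 4 largest changes called in TC versus EV, the 3 genes with the pattern nearest to the member with the largest rise and the largest fall (mean of at least 5 CPM), and Wwtr1 and Camta1. P4hb, Plod3, Bmp1, Ndrg1 and the cell type markers were named after their values were seen. Camta1 was not called. The 12 alternatives were DESeq2 1.42.0, only the groups compared, library size or upper quartile scaling, no filter or 5 CPM in 1 library, a replicate block, and each of 5 libraries left out. Protein sequences were not used here.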

Additional observations from a re-analysis of the deposited data

How the results depend on the processing

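Of the fold changes of the 10 members in 3 comparisons, 337 values under the alternatives kept their direction and their side of the threshold, 7 lost a call and 13 gained one, and none changed direction. The members called higher numbered between 6 and 8 in each comparison with EV, and 2 were called lower throughout. In TC + ATA versus TC, 0 members were called higher in the fit of all libraries, 2 with DESeq2, 3 with only the groups compared, and between 0 and 3 with each library left out. The number of all genes called in that comparison was 108, against 403 with DESeq2, 1428 with only the groups compared, 350 without a filter, 40 with the replicate block and between 10 and 1469 with each library left out. The cause was not tested. In TC versus EV, 5191 genes were called, and 3184 with the replicate block.

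The replicate numbers 1 and 2 occur in both EV and TC + ATA. For each number, the departure of the EV library from its group was correlated across genes with that of the TC + ATA library. The correlations were −0.029 for number 1 and −0.0861 for number 2. With 2 EV libraries, their departures from the EV mean are mirror images, so these values are not independent. Whether libraries of the same number were prepared together cannot be decided from them. With the replicate block, which leaves 1 residual degree of freedom, the member calls that were lost were those of Loxl2. Scaling by library size moved the median log2 fold change of all genes in TC versus EV from −0.03 to −0.13, and with it the share of calls that were higher from 52.7% to 39.6%; in TC + ATA versus EV that share went from 49.2% to 38.2%. Outside the members, P4hb in TC versus EV turned from 0.10 to −0.0048 with that scaling and lay between −0.06 and 0.27 with each library left out, and Col5a3 in TC + ATA versus TC turned from 0.05 to −0.18 with the replicate block and lay between −0.02 and 0.11 with each library left out. The alternatives for the lists and for genes outside the members were chosen after seeing the data. Intervals and counts cover these libraries only, and the TC group of 1 library is taken to vary like the others.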
